A study of Mus musculus with 6 samples.

Results

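Desmosomes are the buttons that hold epithelial cells together, and the 10 genes described here encode their adhesive and plaque proteins. They are the desmogleins Dsg1a, Dsg2, Dsg3 and Dsg4, the desmocollins Dsc1, Dsc2 and Dsc3, and the plaque proteins Pkp1 (plakophilin), Jup (plakoglobin) and Dsp (desmoplakin). The members were chosen by name, and all 10 were found among the 23412 genes of the expression table. The mutant mice were HoxB6CreERT/+, R26-YFP/+ and CatnbΔex3/+ and carried activated beta-catenin. The controls were littermates with HoxB6CreERT/+ and R26-YFP/+ but no CatnbΔex3 allele. Both groups, 3 mice each on a mixed CD1 and C57BL/6 background, were exposed to tamoxifen at embryonic day 16.5 through the mother's gavage, and total RNA of ventral dermis was sequenced at 3 weeks of age. The Cre recombinase is under Hoxb6 control and needs tamoxifen, so only cells in which Hoxb6 was active at that time can carry the activated allele. The study's title places that allele in dermal fibroblasts.

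Desmogleins and desmocollins are cadherins that bind across the gap between neighbouring cells. Inside the cell their tails bind plakoglobin and plakophilins, and desmoplakin ties this plaque to keratin filaments. In skin Dsg3 and Dsc3 are strongest in basal layers and outer root sheath, Dsg1 and Dsc1 in differentiating layers, and Dsg4 in the hair shaft, while Dsg2 and Dsc2 are typical of simple and less differentiated epithelia. Dermal fibroblasts build no desmosomes, while the hair follicles that reach down into the dermis do. Jup is the closest relative of beta-catenin and is also found at adherens junctions.

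The label ventral dermis was checked against markers: fibroblast genes were abundant, and so were hair follicle genes. The summed level of 7 fibroblast markers such as Col1a1 was 9441 to 13540 FPKM (the authors' fragments per kilobase and per unit of sequencing depth) in mutants and 2678 to 10407 in controls. All 7 lay above 0, with a median log2 difference of 1.09, and 5 of 7 had all mutants above all controls, against 13.0% of all tested genes separated in that direction. None of the 7 was called with limma on the deposited values, and 3 were with limma-voom on recovered reads. The part of fibroblast content in the desmosomal values was not tested. The 9 inner root sheath markers, mostly keratins of the follicle, summed to 3437 to 6853 FPKM in mutants and 6275 to 6761 in controls. Gene reads, worked back from the steps of the values, came to 11839144 to 13478910 per mutant library and 7799565 to 9675359 per control library. Mutant 2 stood apart: the ribosomal RNA precursor Rn45s took 8.10% of its gene reads, against 1.96% to 5.28% in the other libraries. It also had 6.47 FPKM of Xist beside its Y-linked RNA. Summed over 4 Y-linked genes, mutants 1 to 3 had 63.4, 47.6 and 57.5 FPKM and control 3 had 56.3. Controls 1 and 2 had no more than 0.0607 FPKM, with Xist at 55.5 and 66.2 FPKM. Control 3 was thus the only control with the Y-linked RNA of all mutants, so sex and genotype can only partly be told apart. Beta-catenin RNA itself (Ctnnb1) was at 193, 136 and 168 FPKM in mutants 1 to 3 and 201, 163 and 183 in controls 1 to 3. This whole-gene value does not show loss of a single exon and so does not check the genotype.

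No desmosomal gene differed between mutant and control dermis past the threshold. All 10 were tested together with every gene averaging 1 FPKM or more (12560 genes), and 0 of 10 had an adjusted p under 0.05 (limma on log2(FPKM + 1), Benjamini-Hochberg; lowest adjusted p = 0.446, for Dsc2). Over all tested genes 0.143% were called, all of them higher in mutants. At an unadjusted p under 0.05 the count of members was also 0, against 0.748% of all tested genes lower and 10.5% higher in mutants, and limma-voom on recovered reads called 0 members as well. All 10 differences lay below 0, with a median of -0.18 on the log2(FPKM + 1) scale, while the median of all tested genes was 0.09 and 28.7% of them lay below 0. Mutant 2 had the lowest value of the 6 libraries for 10 of 10 members, and it was the lowest for 35.2% of all tested genes. Control 2 was the lowest for 47.1% of all tested genes, yet the highest for 7 of 10 members. Without mutant 2 the members' median was -0.05, 7 of 10 lay below 0, and the median of all genes was 0.17. With library sex as a covariate 6 of 10 lay below 0.

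**Figure D1:**
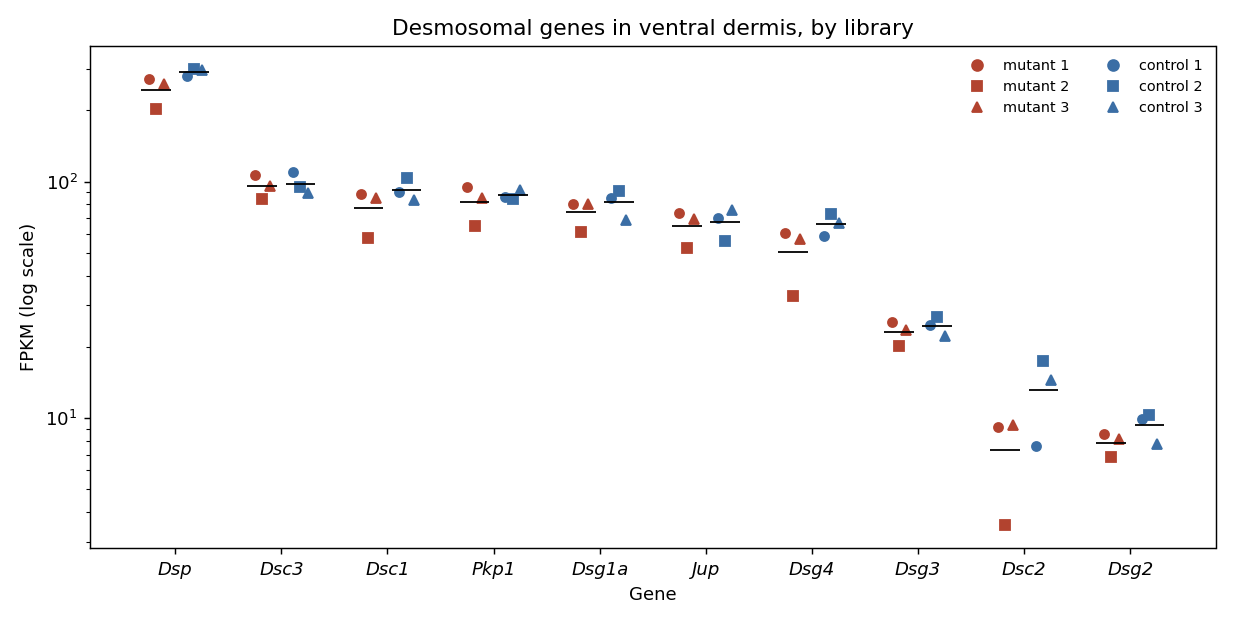
FPKM of each of the 10 desmosomal genes in each library on a log axis, ordered by mean level; red is mutant, blue is control, shapes are replicate numbers and bars are group means. Mutant 2 (red squares) is the lowest library for all 10 genes, and Dsp is the gene whose 3 mutants all lie below its 3 controls.

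The plaque proteins are described first, since they are shared by desmosomes of every layer. Dsp (chromosome 13, 38151294 to 38198577, GRCm38), the linker to keratin and the most abundant member, had 272, 202 and 258 FPKM in mutants 1 to 3. In controls 1 to 3 it had 278, 300 and 296 FPKM. The highest mutant thus lay just below the lowest control, with group levels of 244 ± 37.2 FPKM in mutants and 291 ± 11.5 in controls (mean ± SD, n = 3 each). The log2 difference was -0.26 (SE 0.24, 95% interval -0.81 to 0.28; limma adjusted p = 0.784), and -0.13 without mutant 2. Dsp was the only member whose groups did not overlap, against 2.65% of all tested genes separated in that direction and 15.6% in either direction. Its values rested on 41359 to 52722 reads per mutant library and 42415 to 45614 per control library.

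Jup (chromosome 11, 100368958 to 100397763), the plakoglobin that links cadherin tails to desmoplakin, had 73.9, 52.3 and 69.2 FPKM in mutants 1 to 3. Controls 1 to 3 had 70.1, 55.9 and 75.9 FPKM. The groups overlapped across almost their whole ranges, since control 2 was nearly as low as mutant 2. The log2 difference of Jup was -0.050 (SE 0.21, 95% interval -0.52 to 0.42; limma adjusted p = 0.968). Pkp1 (chromosome 1, 135871395 to 135919207), a plakophilin of stratified epithelium that strengthens the plaque, had 95.2, 64.8 and 85.5 FPKM in mutants 1 to 3. Its controls 1 to 3 were close together at 86.3, 84.4 and 91.9 FPKM. Mutant 1 was above every control and mutant 2 below every control, and the log2 difference was -0.11 (SE 0.20, 95% interval -0.57 to 0.34; limma adjusted p = 0.908).

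The 250 bases before the RefSeq start are shown for Jup and Dsp, the only members with a promoter window at hand. They were read 5′ to 3′ on the gene's strand from RefSeq's promoter windows on GRCm38.p6, and 2 of the 10 members had such a window in the table. Capitals mark the GC box, GGGCGG on either strand.
Jup, chr11:100397791-100398040, minus strand: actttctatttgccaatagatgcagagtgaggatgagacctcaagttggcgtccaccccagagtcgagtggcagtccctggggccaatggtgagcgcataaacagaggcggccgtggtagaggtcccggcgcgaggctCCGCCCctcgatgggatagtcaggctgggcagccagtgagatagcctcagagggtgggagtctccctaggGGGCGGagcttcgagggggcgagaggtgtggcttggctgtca
Dsp, chr13:38151044-38151293, plus strand: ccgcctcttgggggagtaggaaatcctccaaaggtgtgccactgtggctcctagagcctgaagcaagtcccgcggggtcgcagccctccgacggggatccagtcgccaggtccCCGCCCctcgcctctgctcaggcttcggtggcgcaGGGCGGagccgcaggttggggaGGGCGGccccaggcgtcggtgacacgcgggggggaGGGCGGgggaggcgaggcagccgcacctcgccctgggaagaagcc
The Jup window held 2 GC boxes, 112 and 42 bases before the start, and the Dsp window held 4, at 137, 102, 80 and 45 bases. A GC box was found in 32.7% of 32851 windows of this length. Base composition was 62.0% G and C for Jup and 72.4% for Dsp, with a median of 52.4% over all windows. The TCF/LEF core CTTTGAT, searched on both strands and present in 3.21% of all windows, was in neither. The grainyhead-like site AACCGGTT, present in 0.116% of windows, was in neither as well. CCAAT matched 2 times in Jup and 0 times in Dsp, and was in 33.8% of all windows.

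The 7 desmosomal cadherins lie side by side on chromosome 18, together with Dsg1b and Dsg1c, in a stretch of 644 kb (19960930 to 20604521, GRCm38). The desmogleins bind desmocollins and other desmogleins on the facing cell. Dsg1a, the most abundant of the 3 mouse copies of desmoglein 1 in these libraries, had 80.6, 61.2 and 80.7 FPKM in mutants 1 to 3. Controls 1 to 3 had 85.1, 90.8 and 68.9 FPKM, so control 3 lay below mutants 1 and 3. The log2 difference was -0.14 (SE 0.20; limma adjusted p = 0.889). Its near copies Dsg1b and Dsg1c averaged 18.0 and 0.402 FPKM in mutants and 19.2 and 0.433 in controls. How reads matching more than 1 copy were counted is not given in the sources used here, so the split between the 3 copies is uncertain.

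Dsg3, the basal desmoglein that is the autoantigen of pemphigus vulgaris in people, overlapped between the groups. It had 25.4, 20.2 and 23.5 FPKM in mutants 1 to 3 and 24.6, 26.7 and 22.2 in controls 1 to 3. The log2 difference of -0.089 had a 95% interval of -0.43 to 0.26 (limma adjusted p = 0.904). Dsg2, the desmoglein of simple epithelia, was the least abundant member by its mean over the 6 libraries, though Dsc2 averaged less in mutants. It had 8.55, 6.86 and 8.12 FPKM in mutants 1 to 3. Its controls 1 to 3 had 9.85, 10.3 and 7.77 FPKM, and control 3 lay below mutants 1 and 3. The log2 difference of Dsg2 was -0.22 (SE 0.15, 95% interval -0.54 to 0.11; limma adjusted p = 0.671).

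Dsg4, the desmoglein of the hair shaft, whose loss gives the lanceolate hair phenotype in mice, varied more between mutants than between controls. It had 60.9, 32.9 and 56.9 FPKM in mutants 1 to 3 and 59.1, 72.7 and 66.6 in controls 1 to 3. Mutant 1 was above control 1, and mutant 2 stood far below all other libraries. The log2 difference was -0.43 (SE 0.24, 95% interval -0.98 to 0.12; limma adjusted p = 0.583), and -0.16 without mutant 2. The summed level of 8 hair shaft keratins was 2498, 896 and 2172 FPKM in mutants 1 to 3 and 1862, 2710 and 3223 in controls 1 to 3. All 8 were detected, 0 of 8 were called, and their median log2 difference was -0.63, or -0.14 without mutant 2. Mutant 2 was lowest for Dsg4 and for the summed hair shaft keratins, and the part of hair shaft content in the Dsg4 values was not tested.

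Among the desmocollins, Dsc2 had the largest difference of all members. This desmocollin of less differentiated epithelium had 9.20, 3.51 and 9.31 FPKM in mutants 1 to 3, from 331 to 875 reads per library. Controls 1 to 3 had 7.64, 17.3 and 14.5 FPKM, from 574 to 1214 reads. Control 1 lay below mutants 1 and 3, so the groups overlapped even though the means were 7.34 ± 3.32 FPKM in mutants and 13.2 ± 4.99 in controls. The log2 difference was -0.79 (SE 0.35, 95% interval -1.58 to 0.0038; unadjusted p = 0.0509, limma adjusted p = 0.446). It was -0.40 without mutant 2, -0.57 without control 2 and -1.11 without control 1. The within-library ratio of Dsc2 to Dsc3, looked at after the values were seen, was -3.54, -4.59 and -3.36 on the log2 scale in mutants 1 to 3 and -3.84, -2.46 and -2.63 in controls 1 to 3. Dsc2 was thus low in control 1 and high in controls 2 and 3 relative to its neighbour as well.

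Dsc3, the basal desmocollin and the second most abundant member, had 107, 84.5 and 95.8 FPKM in mutants 1 to 3. Controls 1 to 3 had 109, 95.2 and 89.7 FPKM. Control 1 lay above every mutant and mutant 2 below every control, with the other 4 libraries between them, and the log2 difference of -0.035 was the smallest of the 10 (SE 0.20, 95% interval -0.48 to 0.41; limma adjusted p = 0.978). Dsc1, the desmocollin of differentiating cells, had 88.5, 57.5 and 85.2 FPKM in mutants 1 to 3 and 90.4, 104 and 83.3 in controls 1 to 3. Only mutant 2 lay below every control, and the log2 difference was -0.28 (SE 0.22, 95% interval -0.78 to 0.22; limma adjusted p = 0.738), and -0.085 without that library.

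**Figure D2:**
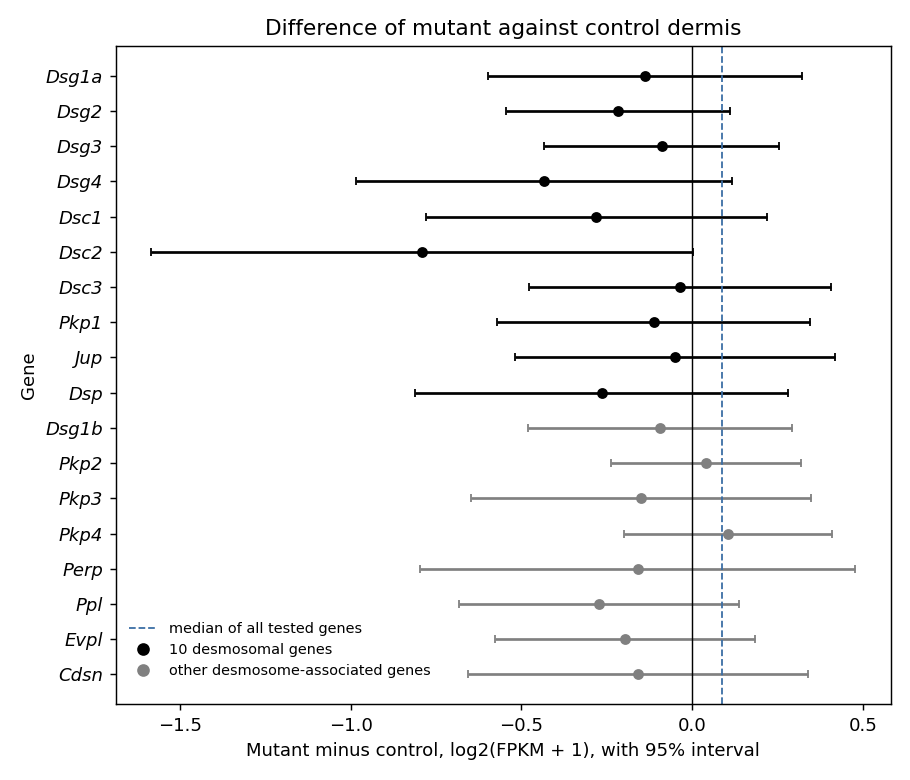
Mutant minus control difference on the log2(FPKM + 1) scale, with 95% intervals, for the 10 desmosomal genes (black) and 8 other desmosome-associated genes (grey); the dashed line is the median of all tested genes, 0.09. Every interval includes 0, and the point farthest from 0 is Dsc2 at -0.79.

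The intervals set what could have been missed. For Dsc3 they covered log2 differences from -0.48 to 0.41, and for Dsc2 from -1.58 to 0.0038. The coefficient of variation between mice ran from 11.2% for Dsg2 to 45.2% for Dsc2 in mutants, and from 3.96% for Dsp to 37.9% for Dsc2 in controls. It was larger in mutants than in controls for every member but Dsg2. Between mutants 1 and 3 alone it was 0.866% for Dsc2 and 0.126% for Dsg1a, and it was larger than in controls for 1 of 10 members, Pkp1. Here mutant 2, the lowest library for every member, was left out while all 3 controls were kept, so the comparison is uneven. With 3 mice a group the test thus bounds these differences and does not show that the levels were equal. In bulk dermis, fewer epithelial cells and less RNA per epithelial cell cannot be told apart.

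By mean level over the 6 libraries the order was Dsp, Dsc3, Dsc1, Pkp1, Dsg1a, Jup, Dsg4, Dsg3, Dsc2 and Dsg2. Dsp stood above Dsc3 in every library, with separate ranges in both groups. From Dsc3 to Dsg4 each neighbour overlapped the next in both groups. The pair Dsc1 and Pkp1 changed places: Dsc1 was the higher in 0 of 3 mutants and in 2 of 3 controls. Dsg3 was separate from Dsg4 above it and from Dsc2 below it in both groups, and Dsc2 overlapped Dsg2.

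These orders depend on the gene lengths behind FPKM. The lengths implied by reads and FPKM, as a share of that of Dsp, were 0.363 for Dsg4 and 0.553 for Dsc3, close to the 0.363 and 0.556 of the longest GENCODE transcripts. For Jup the implied share was 0.522 and that of its longest transcript 0.334. For Dsg3 the implied share was 0.428 and that of its longest transcript 0.648. The levels of Jup and Dsg3 relative to other members therefore depend most on the gene models used, while comparisons of the same gene between mice are not touched.

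The make-up of the cadherin pool was described by shares, with no test. As shares of the summed FPKM of the 7 cadherins, Dsc3 held 28.8% ± 2.57 in mutants and 25.5% ± 2.73 in controls (mean ± SD, n = 3 each). Dsc1 held 22.8% ± 1.12 in mutants and 24.0% ± 0.802 in controls, and Dsg1a 22.2% ± 0.90 and 21.1% ± 1.40. Dsg4 held 14.7% ± 2.07 in mutants and 17.2% ± 1.79 in controls. Dsg3 held 6.67%, 7.58% and 6.54% in mutants 1 to 3 and 6.38%, 6.40% and 6.30% in controls 1 to 3, a small offset in which all mutants lay above all controls. Dsc2 held 2.11% ± 0.692 in mutants and 3.42% ± 1.25 in controls, and Dsg2 held 2.36% ± 0.183 and 2.41% ± 0.186. The sum itself was 380.0, 266.7 and 359.5 FPKM in mutants 1 to 3 and 385.9, 416.8 and 353.1 in controls 1 to 3. Such shares are bound to one another, since they add up to the whole.

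**Figure D3:**
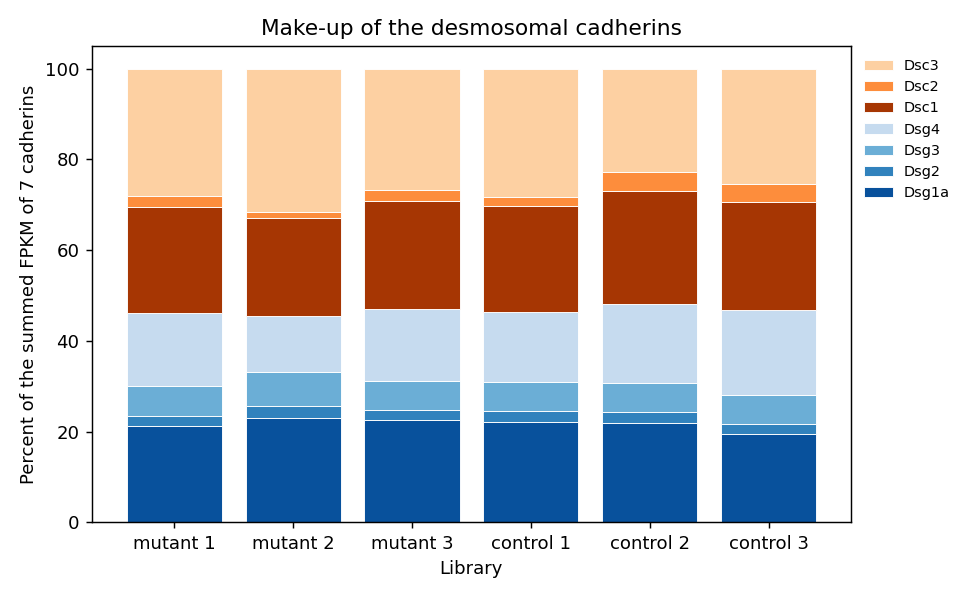
Stacked bars of the share of each of the 7 desmosomal cadherins in their summed FPKM, 1 bar per library, mutants left and controls right; desmogleins are blue and desmocollins orange. Dsc3, Dsc1 and Dsg1a make up most of every bar, and the Dsg4 band is thinnest in mutant 2 at 12.3%.

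Ratios within a library do not depend on a factor that scales the whole library, and 5 were compared with exact permutation tests over the 6 libraries (two-sided). With 3 against 3 the smallest p is 0.1, so none could pass 0.05. Dsg1a to Dsg3, differentiated against basal desmoglein, was 1.67, 1.60 and 1.78 on the log2 scale in mutants 1 to 3 and 1.79, 1.77 and 1.63 in controls 1 to 3. The mean difference was -0.047 (exact permutation p = 0.60, adjusted over the 5 ratios p = 0.60). Dsc1 to Dsc3, the same contrast among desmocollins, was -0.27, -0.55 and -0.17 in mutants and -0.27, 0.12 and -0.11 in controls (mean difference -0.25, exact permutation p = 0.20, adjusted p = 0.333). Neither pair separated the groups. Dsg4 to Dsg3, hair shaft against basal desmoglein, was 1.26, 0.70 and 1.28 in mutants and 1.26, 1.45 and 1.58 in controls. The mean difference of -0.35 (exact permutation p = 0.30, adjusted p = 0.375) became -0.16 without mutant 2.

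Both plaque ratios were higher in mutants, with no overlap. How often ratios of other gene pairs separate the groups was not tested. Pkp1 to Dsp was -1.52, -1.64 and -1.59 in mutants 1 to 3 and -1.69, -1.83 and -1.69 in controls 1 to 3. The mean difference of 0.15 gave the smallest p possible (exact permutation p = 0.10, adjusted p = 0.25). Jup to Dsp was -1.88, -1.95 and -1.90 in mutants and -1.99, -2.42 and -1.96 in controls. Its mean difference was 0.21 (exact permutation p = 0.10, adjusted p = 0.25) and 0.065 without control 2, whose Jup was low. These ratios share the Dsp values and so are not independent of one another.

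**Figure D4:**
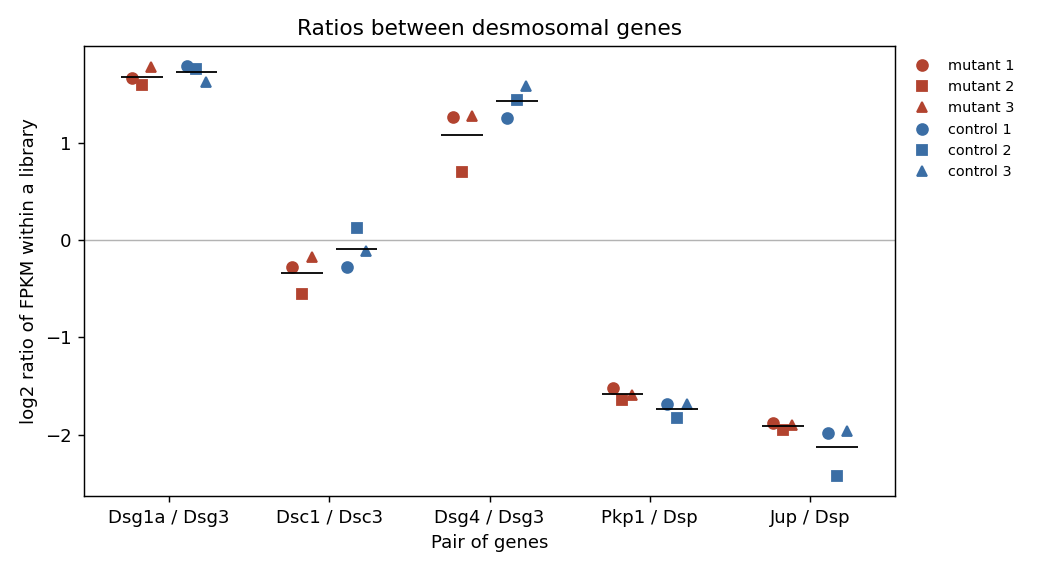
Log2 ratio of FPKM within each library for 5 pairs of desmosomal genes; red is mutant, blue is control, shapes are replicate numbers and bars are group means. For Pkp1 to Dsp and Jup to Dsp the 3 mutants lie above the 3 controls, and for the other pairs the groups overlap.

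Of the other genes of the desmosome and its outer coat, 9 were listed and 8 tested, with Dsg1c below the floor. In this list 0 of 8 were called, 6 lay below 0 and 2 above, and the median log2 difference was -0.15, or 0.052 without mutant 2. Ppl (periplakin), a plakin that joins desmosome and cornified envelope, had 54.4, 38.7 and 49.7 FPKM in mutants 1 to 3 and 56.1, 59.6 and 55.7 in controls 1 to 3. All mutants lay below all controls, with a log2 difference of -0.27 (SE 0.18, limma adjusted p = 0.671). Its partner Evpl (envoplakin) differed by -0.20 and Pkp4, a plakophilin relative found at several junctions, by 0.10 (limma adjusted p = 0.767 and 0.865). Perp, a membrane protein of desmosomes, stood at 461 FPKM in mutants and 511 in controls, the highest mean of this list.

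Genes of other junctions between epithelial cells were counted in the same way. Of 8 adherens junction genes 0 were called and 8 lay below 0, with a median of -0.15; without mutant 2, 4 of 8 lay below 0. Cdh1 (E-cadherin) was at 42.2 ± 5.24 FPKM in mutants and 49.7 ± 2.94 in controls (limma adjusted p = 0.699), while the nectin gene Pvrl1 and the nectin-binding Mllt4 differed by -0.22 and -0.24. Of 8 tested tight junction genes 0 were called and 7 lay below 0, with a median of -0.12, or 0.036 without mutant 2. Tjp1, a scaffold of tight junctions, was at 21.8 ± 3.15 FPKM in mutants and 24.5 ± 1.15 in controls (limma adjusted p = 0.777), and Cgn (cingulin) differed by -0.11. Mutant 2 was the lowest library in the centred median of each of these lists, at -0.33 for adherens and -0.31 for tight junctions.

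Hemidesmosomes anchor basal cells to the matrix below. Of 9 hemidesmosome genes 0 were called and 8 lay above 0, with a median of 0.15. It was 0.23 without mutant 2 and -0.012 on the scale of basal keratinocyte markers described next. Lamb3, a laminin chain, was at 6.02 ± 0.591 FPKM in mutants and 4.61 ± 1.57 in controls (limma adjusted p = 0.533), and Itga6 and Cd151 differed by 0.26 and 0.30. Here control 2 was the lowest library, at -0.23, and mutant 2 stood at -0.0016. The 7 basal keratinocyte markers, of which Col17a1, Itga6 and Itgb4 are in the hemidesmosome list too, had a median of 0.20 and a summed level of 839, 679 and 727 FPKM in mutants 1 to 3 and 732, 555 and 602 in controls 1 to 3. None of the 7 was called. Set against these markers as a scale, an alternative added after the data were seen, the members' median was -0.36, that of all genes -0.073, and 0 members were called. On that scale the medians were -0.34 for the other desmosome genes, -0.34 for adherens junctions and -0.28 for tight junctions.

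Keratins that desmoplakin can hold were counted as well. Of 12 listed keratins 10 were tested, 0 were called and 8 lay above 0, with a median of 0.20. It was 0.29 without mutant 2 and 0.0064 on the basal keratinocyte scale. That scale is itself built in part from Krt5, Krt14 and Krt15 of this list. Krt1, of differentiating epidermis, had 10.5, 21.2 and 11.2 FPKM in mutants 1 to 3 and 11.9, 7.03 and 4.65 in controls 1 to 3, with a log2 difference of 0.81 (SE 0.32, limma adjusted p = 0.374). Mutant 2 was thus the highest library for Krt1 and the lowest for each of the 10 members. Krt15, of basal cells and the follicle bulge, was at 193 ± 23.6 FPKM in mutants and 132 ± 36.2 in controls (limma adjusted p = 0.437), and Krt77, a type II keratin of skin, differed by 0.74. The suprabasal markers (6 of 7 found) summed to 145 to 245 FPKM in mutants and 84.4 to 183 in controls. Of the 5 tested 0 were called, 4 lay above 0 and 1 below. Mutant 2 was the highest library for Krt1, Krt10, Lor and Krtdap. For Ivl it was the lowest, at 17.1 FPKM against 33.2 to 36.8 in the other libraries, with a log2 difference of -0.34. The share of epidermis left after trypsin in these values was not tested.

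Transcription and splicing regulators of epithelium numbered 11: 10 lay below 0, 0 were called, and the median was -0.20. It was -0.076 without mutant 2 and -0.39 on the basal keratinocyte scale. Tfap2a, an AP-2 factor of ectoderm, had 7.90, 7.73 and 8.74 FPKM in mutants 1 to 3 and 11.6, 11.9 and 10.6 in controls 1 to 3. Its groups did not overlap and mutant 2 was close to mutant 1, with a log2 difference of -0.44 (SE 0.12, limma adjusted p = 0.191). Ovol1, a zinc finger factor of epidermal differentiation, differed by -0.27. Grhl1, a grainyhead-like factor that regulates Dsg1 in mouse skin, was at 50.7 ± 10.2 FPKM in mutants and 60.6 ± 0.751 in controls (log2 difference -0.27, limma adjusted p = 0.699). In 4 of these 11 genes all mutants lay below all controls, beside 2.65% of all tested genes.

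Proteases and cross-linking enzymes that act on desmosomes in the outer layers went both ways. Of 8 listed genes 7 were tested and 0 called, with 4 above and 3 below 0. Their median was 0.18, or 0.14 without mutant 2 and -0.0088 on the basal keratinocyte scale. The kallikreins Klk8 and Klk5, which cut desmosomal proteins as cells are shed, differed by 0.57 and 0.33 (limma adjusted p = 0.265 and 0.482). Tgm3, a transglutaminase of hair and cornified envelope, was at 15.6 ± 6.68 FPKM in mutants and 24.1 ± 6.21 in controls, a log2 difference of -0.67 (limma adjusted p = 0.497). Mutant 2 was the lowest library for Tgm3, at 7.85 FPKM.

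**Figure D5:**
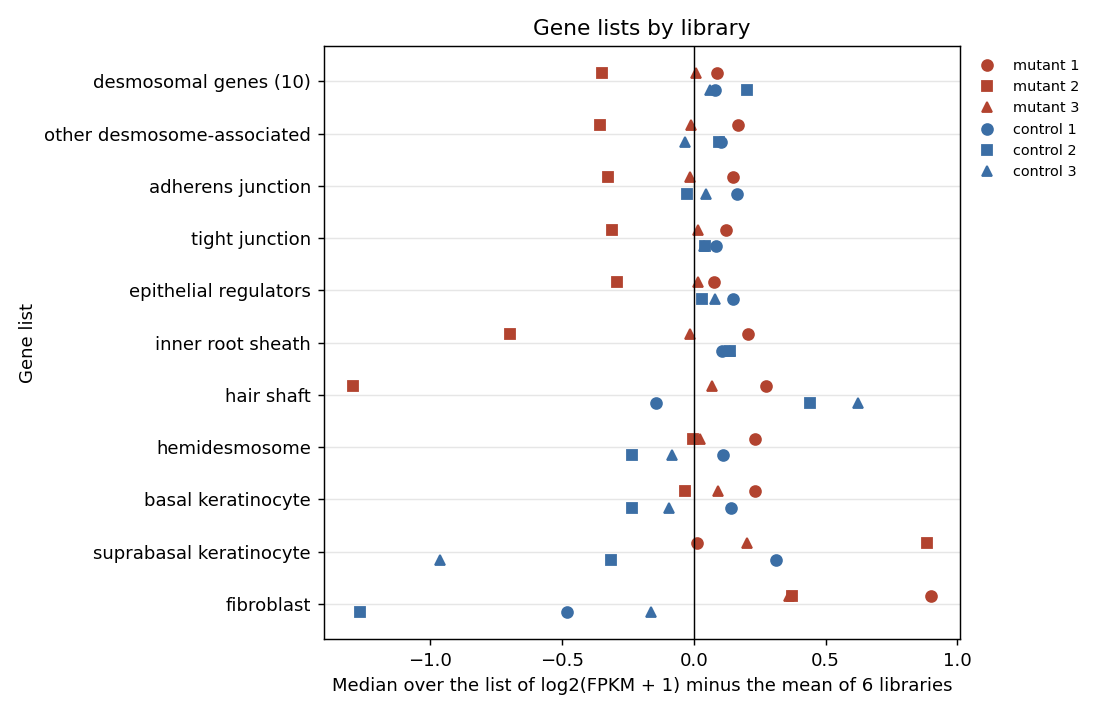
For 11 gene lists, the median over tested genes of log2(FPKM + 1) minus the mean of the 6 libraries; red is mutant (upper row of each list), blue is control (lower row), and shapes are replicate numbers. Mutant 2 is at -0.35 for the desmosomal genes, -0.70 for inner root sheath and -1.30 for hair shaft, but at -0.034 for basal and 0.88 for suprabasal keratinocyte markers. Ivl, a suprabasal marker, goes against that median and is lowest in mutant 2.

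The members' profile over the libraries was summarised by a mean. The mean of their centred log2 values was 0.087, -0.46 and 0.0087 in mutants 1 to 3 and 0.069, 0.21 and 0.085 in controls 1 to 3. In mutant 2 all 10 lay below their own mean, from -1.19 for Dsc2 to -0.19 for Dsc3. In control 2, 8 of 10 lay above it, with Jup lowest at -0.23 and Dsc2 highest at 0.84. Inner root sheath markers (9 of 9 detected, 0 called, 9 below 0, median -0.30, or -0.10 without mutant 2) summed to 6853, 3437 and 5887 FPKM in mutants 1 to 3 and 6275, 6761 and 6435 in controls 1 to 3, so they too were low in mutant 2. The part of hair follicle content in the desmosomal values was not tested.

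Among the other 12550 tested genes, those most like this profile were Tgm6, Acpp, Rnft1, Fam199x and Krt26. The measure was Pearson's r over the 6 libraries with the members' mean centred value, given as a description since the libraries share depth and tissue make-up. It was 0.998 for Tgm6, a transglutaminase, and 0.995 for each of Acpp, Rnft1 and Fam199x. For Krt26, a keratin of the inner root sheath, it was 0.994. Without mutant 2, over 5 libraries, it was 0.972 for Tgm6 and 0.983 for Krt26. For Acpp, Rnft1 and Fam199x it was then 0.946, 0.931 and 0.990. Krt26 had 151, 73.0 and 127 FPKM in mutants 1 to 3 and 144, 179 and 142 in controls 1 to 3, lowest in mutant 2 and highest in control 2 as most of the members were. In all, 232 of these 12550 genes had an r above 0.95.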

How the data were processed

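Total RNA of ventral dermis, freed of epidermis after trypsin, went into libraries with the TruSeq Stranded Total RNA kit, as the labels' protocols state. GSNAP, HTSeq and build mm10 are named in the submitters' processing notes; their versions, the annotation and how reads were counted are not stated there. The authors deposited 1 FPKM value for each gene in each library.

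Values were compared as log2(FPKM + 1), which understates the change of low genes, for genes averaging 1 FPKM or more. The test was limma 3.58.1 (R 4.3.3) with an intensity trend, two-sided, Benjamini-Hochberg over 12560 genes, threshold 0.05, no covariate; the prior had 5.44 degrees of freedom. Mice are separate per the labels, so p-values measure spread between mice and their libraries. Replicate libraries were not copies of one another: their chi-square divided by its degrees of freedom was 13.4 to 67.0. A whole-read solution was found from FPKM steps for 23412 of 23412 genes (relative tolerance 3e-09), 1820 of them at 0 throughout. In simulated data the solution was exact for 98.52% of 2562 better-covered genes. Recovered reads served for depth, implied lengths and the limma-voom alternative.

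The genes named were the 10 members, Ctnnb1, up to 3 genes of smallest p in each of 7 lists, and the 5 genes of most similar profile; others were named after their values were seen. The values of 1 gene that this rule names are not reported here. Members and lists were chosen with earlier results of these data known. Positions are from GENCODE M21 (GRCm38, the mm10 assembly) and promoter windows from RefSeq. Antisense Gm16090 overlaps exons of Dsg2 and Gm10129 those of Dsp on the other strand. The read recovery and the limma fits were tested on simulated data. Alternatives were another pseudocount, 2 filters, 2 scalings, a replicate block, library sex, limma-voom, each library left out and, added later, a basal keratinocyte scale.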

Additional observations from a re-analysis of the deposited data

How the results depend on the processing

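No member was called in any of the 15 alternatives (lowest adjusted p = 0.167, for Dsg4 with limma-voom on recovered reads). The replicate block and the 2 filters cannot change a gene's difference. Dsg4, Dsc1, Dsc2 and Dsp kept a difference below 0 in all 15 alternatives, but without mutant 2 these were -0.16, -0.085, -0.40 and -0.13. The other members crossed 0 in some: with single libraries left out, Dsc3 ran from -0.12 to 0.051 (above 0 without control 1 or mutant 2), Pkp1 from -0.23 to 0.044 (above 0 without mutant 2) and Jup from -0.18 to 0.098 (above 0 without control 3 or mutant 2). Control 3 is the only control with the Y-linked RNA that all mutants had. With library sex in the model, Dsg1a, Dsg2, Dsg3 and Dsc3 were at 0.093, 0.0081, 0.043 and 0.087. The cause was not tested. The members' median of -0.18 ran from -0.25 to -0.046 with single libraries left out and was -0.29 after median-of-ratios scaling, -0.28 after quantile normalization, -0.34 with limma-voom and -0.36 on the basal keratinocyte scale, where the median of all genes was -0.0084, -0.029, -0.040 and -0.073, against 0.09 as deposited. Genes called numbered 18 (18 higher, 0 lower; 1323 higher and 94 lower at an unadjusted p under 0.05) and moved to 9 with pseudocount 0.1, 4 with no filter on low FPKM, 28 after median-of-ratios scaling, 32 after quantile normalization, 11 with library sex, 185 with limma-voom and 31 on the basal keratinocyte scale. Left-out libraries gave 3 (without mutant 2) to 193 (without control 3). The 5 ratios kept their sign in the 8 alternatives run for them (a pseudocount, the 6 left-out libraries and the block). With the block this was fixed in advance, since each replicate number occurs in both groups. The ratios were not run with library sex, quantile normalization or limma-voom. With library sex the gene differences of Dsg1a and Dsg3 (0.093 and 0.043) stand in the opposite order. With quantile normalization those of Pkp1 and Dsp (-0.27 and -0.20) do as well, and those of Jup and Dsp are nearly equal (-0.194 and -0.195). Same-numbered libraries did not deviate together (correlations of 0.0016, 0.037 and -0.082 for numbers 1 to 3). With 3 libraries a group this cannot exclude that the numbers pair the mice. With the replicate block 68 genes and 0 members were called, against 18 genes without it. The block could not change the ratios' mean differences of -0.047, -0.25, -0.35, 0.15 and 0.21. Depth was lowest for Dsc2, at 331 reads in mutant 2.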

Other observations

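Melanocytes are the pigment cells of the follicle, and the summed level of 5 of their genes was 62.9, 34.5 and 60.4 FPKM in mutants 1 to 3 and 57.7, 51.1 and 59.3 in controls 1 to 3. Sebaceous gland genes summed to 61.1, 34.7 and 53.7 FPKM in mutants and 50.8, 53.1 and 56.1 in controls. Mutant 2 had the lowest sum in both, but the sebaceous sum is mostly Elovl3 (46.0, 20.2 and 42.0 FPKM in mutants, and 38.6, 42.4 and 46.0 in controls). Within the sebaceous list mutant 2 was the highest library for Scd3, Awat1, Awat2 and Dgat2l6, and the lowest for Elovl3 and Mc5r (6.85 FPKM). It was not the lowest for skeletal muscle genes, which summed to 1006, 695 and 482 FPKM in mutants and 757, 241 and 967 in controls, nor for 5 macrophage genes, at 96.6, 60.9 and 58.5 FPKM in mutants and 34.3, 23.0 and 45.8 in controls. Blood endothelial genes summed to 36.8 to 47.4 FPKM in mutants and 29.2 to 35.8 in controls, Schwann cell genes to 69.5 to 103 and 46.9 to 83.6, and adipocyte genes to 256 to 495 and 326 to 349. The adipocyte sum is mostly Fabp4 (log2 difference -0.034); 4 of the 5 genes lay above 0, with a median of 0.85, and for Adipoq and Plin1 all mutants lay above all controls (13.0% of all tested genes did). None of these lists had a gene called with limma on the deposited values; limma-voom called 1 endothelial and 3 macrophage genes.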
